A study of Mus musculus with 8 samples.

Results

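The genes described here are 10 transcripts of the circadian clock, picked by name from the 28295 genes of the table: Arntl (also called Bmal1), Clock, Per2, Per3, Cry1, Nr1d1, Nr1d2, Dbp, Tef and Hlf. All 10 were present and passed the filter on low values, a mean of at least 0.5 FPKM (mapped fragments per kilobase of gene, per 1000000 fragments in all). The tissue was epididymal white fat from male mice given a Western diet for 8 weeks and then fasted for 6 h. The WT group (4 libraries, WT1 to WT4) had Cul3-flox/flox alleles and no Cre. The KO group (4 libraries, KO1 to KO4) had the same alleles plus AdipoQ-Cre, whose promoter is active in adipocytes, so other cells of the tissue keep Cul3, which encodes a ubiquitin ligase scaffold. All the animals therefore share the floxed alleles, the diet and the fast, and no Cre-only control was analysed here. The labels name neither an age, an hour of collection nor which mouse gave which library, so p-values measure the spread between these libraries.

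In the clock, CLOCK and BMAL1 bind E-box sequences and switch on the Per and Cry genes, whose proteins then inhibit CLOCK and BMAL1. A further loop runs through the REV-ERB receptors (Nr1d1, Nr1d2), which repress Arntl, and the ROR receptors, which activate it at the same sites. The PAR-bZIP factors DBP, TEF and HLF carry the rhythm to output genes through D-box sequences. In white fat, as in other organs, transcripts of this kind cycle over the day, with Arntl near its peak when Nr1d1 and Dbp are near their trough.

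Of the 10 members, Hlf, Per2, Per3 and Nr1d2 were higher in the KO-labelled fat and Nr1d1 and Clock were lower, while Arntl, Cry1, Dbp and Tef did not pass the test. The changes were between 1.31-fold (Nr1d2) and 2.84-fold (Hlf) upward as ratios of mean FPKM, and Nr1d1 went to 0.516 of its WT mean. The 6 members called are to be read against 30.4% of all 14400 tested genes called in the same fit (4 members higher against 11.7%, 2 lower against 18.6%). The same 6 members had groups whose libraries did not overlap, which held for 31.2% of the tested genes. The members were chosen with earlier results of these data known, so their counts are no test against these shares. The median log2 fold change of the members was 0.24, and that of all tested genes was -0.02. The test was limma on log2(FPKM + 0.5), with Benjamini-Hochberg adjustment over all tested genes and genes under an adjusted p of 0.05 were called. All fold changes are KO-labelled over WT on that scale, where the added 0.5 shrinks those of low genes such as Arntl and Hlf.

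**Figure D1:**
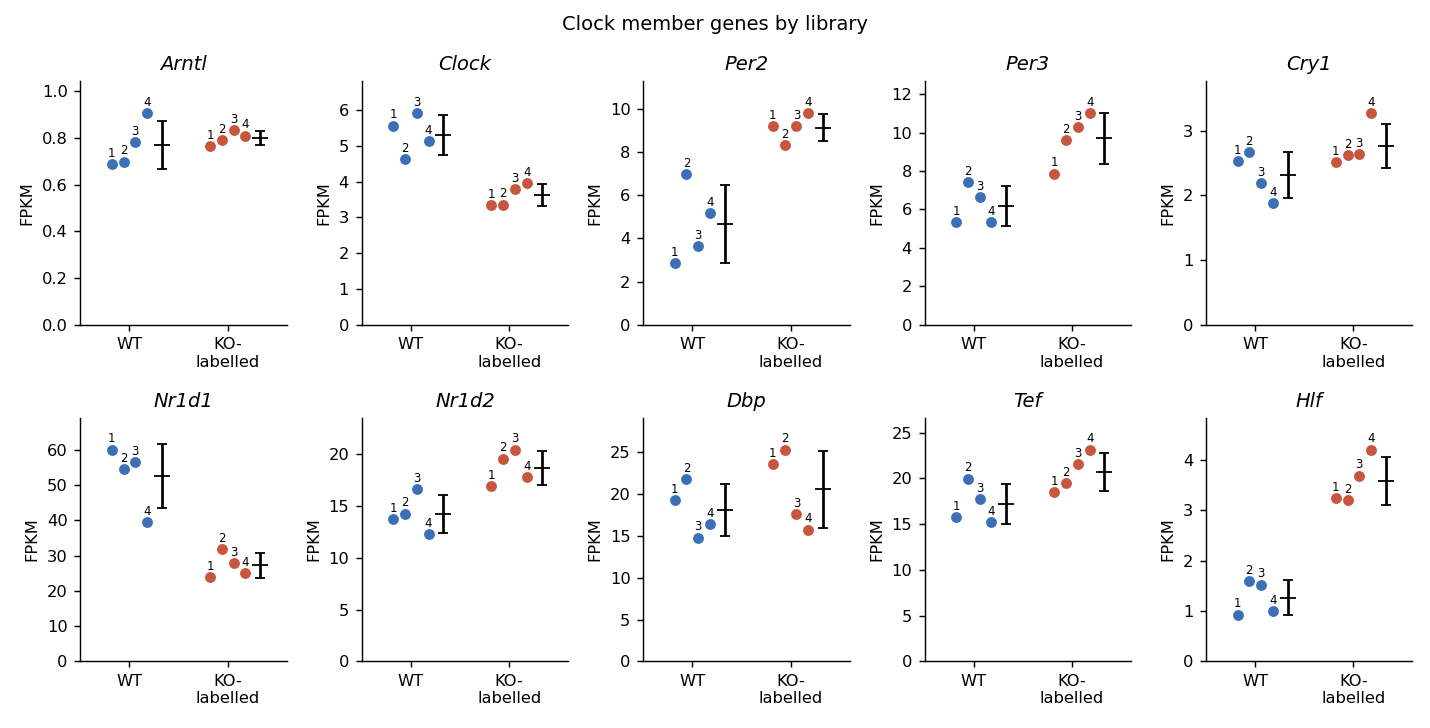
FPKM of each member (vertical axis, from 0) in the 4 WT and the 4 KO-labelled libraries. Points are libraries with their replicate number, and the bar beside them is the mean ± SD. The groups are separate for Hlf, Per2, Per3, Nr1d2, Nr1d1 and Clock, and overlap for the other 4 genes.

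Some facts of the whole series bear on these values. Cul3 did not check the labels: WT1 to WT4 read 11.4, 9.66, 12.4 and 11.5 FPKM of it, KO1 to KO4 10.6, 11.2, 13.2 and 12.99 FPKM (log2 fold change 0.09 ± 0.10 SE, limma adjusted p = 0.520). A value per gene does not separate deleted exons from the rest, so the second group is called KO-labelled, and every direction rests on the labels. The reads in listed genes came to 15.2 to 19.7 M per library (M, 1000000). Of the total behind the FPKM values they were 74.1% to 78.7% in WT but 62.6% to 66.1% in KO-labelled libraries. Libraries were therefore also set to equal reads in listed genes (listed-read scaling), which moved the median over all tested genes from -0.02 to 0.19 on the log2 scale, and to an FPKM sum of 1000000 (sum scaling), which moved it to 0.24. Under these scalings the split of calls changed from 1689 higher and 2683 lower to 4185 and 1266, and to 4226 and 1190.

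Markers of the tissue's cell types also moved with the groups. All 5 adipocyte markers (Adipoq, Plin1, Lep, Cidec, Fabp4) were lower, their summed level being 3572 to 4796 FPKM in WT libraries and 1373 to 1884 FPKM in the KO-labelled libraries, and adipocyte transcripts remained abundant in every library. All 5 endothelial markers were lower (147.6 to 205 against 96.2 to 114.7 FPKM), 1 of 5 macrophage markers was higher (159.7 to 448 against 227 to 578 FPKM, with WT4 highest of its group), and 1 of 5 stromal markers was lower (104 to 159.9 against 133.7 to 164 FPKM). Smooth muscle markers summed to 84.6 to 172 and 91.4 to 110.4 FPKM (3 of 5 higher), and T and B cell markers to at most 2.71 FPKM, all 5 below the filter. The groups of the T cell markers Cd3e, Cd3g and Cd8a did not overlap, on at most 94 reads. Their ratios of mean FPKM, KO-labelled over WT, were 4.45, 6.72 and 5.83. Those of the B cell markers Cd79a and Ms4a1 were 0.551 and 0.973, with groups that overlapped. Liver markers reached 453 FPKM in WT2 and 122 FPKM in WT1 and were 4.40 to 33.04 FPKM in the other 6 libraries (3 of 5 lower in the KO-labelled group). Of the epididymis and testis markers, 4 of 5 were in the table and none was called, and they reached 204 FPKM in KO1 and 49.9 FPKM in WT2. The part of cell composition in the clock values was not tested, and in bulk tissue fewer cells of a type and less RNA per cell cannot be told apart. Without WT2 and KO1 together, the calls of Hlf, Per2, Per3, Nr1d1 and Clock held and that of Nr1d2 did not (adjusted p = 0.0516), although its log2 fold change was no smaller (0.43, against 0.39 in all 8 libraries).

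Promoter windows from RefSeq (GRCm38.p6, the same assembly as mm10), 250 bases before to 50 after each annotated start, were available for 9 of the 10 members, in 13 windows. Per2 had no window and was not searched. They were searched on both strands for the E-box CACGTG, the E′-box CACGTT, the D-box (TTATGTAA or TTACGTAA) and the core of the ROR element, TAGGTCA. Of all 32851 windows in the table, 7.15% held the E-box, 4.68% the E′-box, 1.06% the D-box and 2.61% the ROR core. Matches were found for 5 members. A matching window of each is shown, with its matches in capitals, to place members that differ in response beside the motif each carries. The downstream window of Tef, which also matched, is not printed. Whether the motifs bear on the changes was not tested.
Per3, chr4:151044616-151044915, minus strand: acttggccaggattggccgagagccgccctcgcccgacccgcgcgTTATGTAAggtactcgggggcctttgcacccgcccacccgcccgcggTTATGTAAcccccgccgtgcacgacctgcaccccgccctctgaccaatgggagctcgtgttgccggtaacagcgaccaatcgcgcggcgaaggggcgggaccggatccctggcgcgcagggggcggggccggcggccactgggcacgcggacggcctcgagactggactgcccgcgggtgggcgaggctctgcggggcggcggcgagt
Nr1d1, chr11:98775328-98775627, minus strand: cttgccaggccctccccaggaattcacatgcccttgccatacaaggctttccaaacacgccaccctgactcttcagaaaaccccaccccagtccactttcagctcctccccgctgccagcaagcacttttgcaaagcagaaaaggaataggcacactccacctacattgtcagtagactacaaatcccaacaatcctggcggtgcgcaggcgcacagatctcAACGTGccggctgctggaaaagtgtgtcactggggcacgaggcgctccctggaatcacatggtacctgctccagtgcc
Cry1, chr10:85185005-85185304, minus strand: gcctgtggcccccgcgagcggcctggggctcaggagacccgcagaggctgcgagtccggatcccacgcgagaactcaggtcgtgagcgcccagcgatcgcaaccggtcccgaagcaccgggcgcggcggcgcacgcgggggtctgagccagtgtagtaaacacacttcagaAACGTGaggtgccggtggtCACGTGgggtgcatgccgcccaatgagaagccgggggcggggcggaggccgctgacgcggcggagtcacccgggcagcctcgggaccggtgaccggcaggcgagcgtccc
Tef, chr15:81802423-81802722, plus strand: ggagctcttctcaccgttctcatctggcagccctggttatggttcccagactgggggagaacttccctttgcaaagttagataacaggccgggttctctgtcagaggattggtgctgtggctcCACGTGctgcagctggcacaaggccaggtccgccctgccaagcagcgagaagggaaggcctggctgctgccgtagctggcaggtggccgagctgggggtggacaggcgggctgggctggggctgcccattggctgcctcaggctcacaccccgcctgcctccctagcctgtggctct
Arntl, chr7:113207261-113207560, plus strand: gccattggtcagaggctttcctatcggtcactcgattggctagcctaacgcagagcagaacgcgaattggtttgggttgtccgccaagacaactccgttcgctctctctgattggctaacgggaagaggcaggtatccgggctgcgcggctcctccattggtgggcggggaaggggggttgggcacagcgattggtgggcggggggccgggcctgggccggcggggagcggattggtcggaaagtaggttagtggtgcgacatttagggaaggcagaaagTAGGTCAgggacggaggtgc
Counted from the RefSeq start as base 1, with the base before it as -1, Per3 carried D-boxes that begin at -205 and -158. Nr1d1 had an E′-box at -28, read on the other strand, and Cry1 an E′-box at -79 on the other strand and an E-box at -60. Tef had an E-box at -127 and another at -138 of its downstream window, and Arntl a ROR core at 31. The matches in these windows share no base. No motif of these letters lay in the windows of Hlf, Nr1d2, Clock or Dbp, which says nothing about sites elsewhere in the genes.

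Of the activators, Clock was lower and Arntl did not pass. Clock (ENSMUSG00000029238, chr5:76209868-76304792), which encodes the histone acetyltransferase partner of BMAL1, read 5.57, 4.62, 5.92 and 5.13 FPKM in WT1 to WT4. In KO1 to KO4 it read 3.35, 3.36, 3.80 and 3.96 FPKM, each below the lowest WT library. The means were 5.31 ± 0.564 and 3.62 ± 0.311 FPKM (SD, n = 4 each), a log2 fold change of -0.49 ± 0.09 (limma adjusted p = 0.00524). This call depended on scaling: the fold change was -0.27 with listed-read scaling (adjusted p = 0.0548) and -0.27 with sum scaling (adjusted p = 0.0988).

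Arntl (ENSMUSG00000055116, chr7:113207465-113314126), which encodes BMAL1, was the lowest of the 10 members. It read 0.688, 0.699, 0.783 and 0.908 FPKM in WT1 to WT4, and the KO-labelled libraries 0.766, 0.792, 0.834 and 0.811 FPKM, from 126 to 168 reads each. All KO-labelled values lay within the WT range. The log2 fold change was 0.04 ± 0.11 (adjusted p = 0.819), with a 95% interval from -0.22 to 0.29. Its sign turned under quantile normalization (-0.061). Npas2, a paralog of Clock, was below the filter at 0.278 ± 0.0634 FPKM in WT libraries and 0.139 ± 0.0328 FPKM in the KO-labelled group, from 12 to 40 reads. Its groups did not overlap (p = 0.0286 by an exact two-sided permutation test, which cannot go lower with 4 against 4).

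Among the repressors, Per2 and Per3 rose and Cry1 did not pass. Per2 (ENSMUSG00000055866, chr1:91415982-91459324), which encodes the limiting partner of the PER-CRY complex, read 2.87, 6.97, 3.63 and 5.19 FPKM in WT1 to WT4. In KO1 to KO4 it read 9.22, 8.33, 9.20 and 9.83 FPKM. WT libraries spread 2.43-fold from lowest to highest and KO-labelled libraries 1.18-fold, and the groups did not overlap. Means of 4.66 ± 1.82 and 9.15 ± 0.616 FPKM gave a log2 fold change of 0.97 ± 0.22 (adjusted p = 0.0125).

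Per3 (ENSMUSG00000028957, chr4:151003652-151044665), an accessory PER protein whose promoter holds the D-boxes shown above, read 5.35, 7.42, 6.63 and 5.33 FPKM in WT, against 7.86, 9.60, 10.3 and 11.03 FPKM in the KO-labelled libraries. KO1 was the lowest of its group and only just above WT2, the highest of the other. Its log2 fold change was 0.61 ± 0.13 (adjusted p = 0.0102). The calls of Per2 and Per3 were kept under all 21 alternatives, with log2 fold changes of 0.78 to 1.30 and 0.55 to 0.91.

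Cry1 (ENSMUSG00000020038, chr10:85131700-85185064), a late-acting repressor of CLOCK and BMAL1, read 2.53, 2.67, 2.19 and 1.88 FPKM in WT, against 2.52, 2.63, 2.63 and 3.28 FPKM in the KO-labelled libraries. The groups overlapped, with KO4 apart from the other 3 of its group. The log2 fold change was 0.22 ± 0.12 (adjusted p = 0.196, 95% interval -0.05 to 0.48). It was 0.42 with listed-read scaling (adjusted p = 0.0155) and 0.51 with sum scaling (adjusted p = 0.0126). Beside these, Per1, a light- and glucocorticoid-responsive PER gene, was at 14.1 ± 5.37 FPKM in WT libraries and 21.6 ± 3.18 FPKM in the KO-labelled group (0.67 ± 0.26, adjusted p = 0.0835). It passed with listed-read scaling (adjusted p = 0.0255), sum scaling (0.0237), with quantile normalization (0.0355) and without WT2 (0.0329). Without WT1 its log2 fold change was 0.43 (adjusted p = 0.146), and in the other 16 alternatives its adjusted p was 0.0685 to 0.163. Cry2 was at 9.67 ± 1.33 and 9.33 ± 0.589 FPKM (-0.04 ± 0.10, adjusted p = 0.788), with a sign that turned under listed-read scaling (0.20), sum scaling (0.23) and quantile normalization (0.049).

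The paralogous REV-ERB receptors moved in opposite directions. Nr1d1 (ENSMUSG00000020889, chr11:98767932-98775333), which encodes the heme-binding repressor REV-ERBα, read 60.1, 54.5, 56.6 and 39.5 FPKM in WT1 to WT4. It read 23.8, 31.9, 27.9 and 25.1 FPKM in KO1 to KO4, and WT4, the lowest WT library, still exceeded every KO-labelled one. The means were 52.7 ± 9.06 and 27.2 ± 3.60 FPKM, a log2 fold change of -0.93 ± 0.15 (adjusted p = 0.00230). The call held under all 21 alternatives (-1.06 to -0.67).

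Nr1d2 (ENSMUSG00000021775, chr14:18204054-18239127), which encodes REV-ERBβ, read 13.7, 14.2, 16.6 and 12.2 FPKM in WT, against 16.9, 19.5, 20.4 and 17.8 FPKM in the KO-labelled libraries. The highest WT library (WT3) and the lowest KO-labelled one (KO1) nearly met. Its log2 fold change was 0.39 ± 0.10 (adjusted p = 0.0240). The call was lost without any of WT1, WT2, KO2 or KO3 (adjusted p = 0.0516 to 0.0705, fold changes 0.34 to 0.39) and without WT1 and WT2 together (0.37, adjusted p = 0.148).

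The ratio of Nr1d1 to Nr1d2 within a library does not depend on how libraries are scaled. It was 3.23 to 4.37 in WT libraries and 1.37 to 1.63 in KO-labelled ones, with no overlap. The ratio was chosen after its values were seen and was not tested. Nr1d1 shares 263 of 3077 exon bases with Thra on the opposite strand, and the counting is not stated to use strand. Thra was at 11.8 ± 1.35 FPKM in WT libraries and 11.5 ± 0.620 FPKM in the KO-labelled group (log2 fold change -0.02, adjusted p = 0.889).

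**Figure D2:**
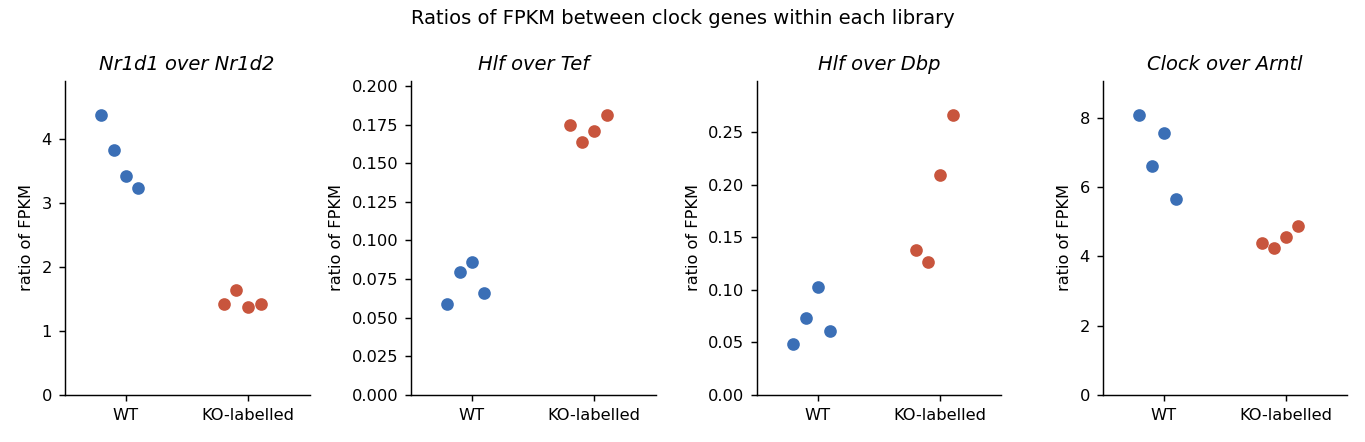
Ratio of the FPKM of a clock gene to that of another in the same library (vertical axis, from 0), with 1 point per library. The KO-labelled points lie below WT for Nr1d1 over Nr1d2 and Clock over Arntl, and above WT for Hlf over Tef and Hlf over Dbp.

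Of the PAR-bZIP output factors, Hlf rose, and Dbp and Tef did not pass. Hlf (ENSMUSG00000003949, chr11:90336536-90390895), known from liver as a rhythmic activator of detoxification genes, read 0.928, 1.59, 1.52 and 1.004 FPKM in WT1 to WT4. It read 3.24, 3.19, 3.68 and 4.20 FPKM in KO1 to KO4. The lowest KO-labelled library lay well above the highest WT library. Means of 1.26 ± 0.344 and 3.58 ± 0.469 FPKM gave a log2 fold change of 1.23 ± 0.15 (adjusted p = 0.000723), the largest among the members, and the call held under all 21 alternatives (1.03 to 1.72).

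Dbp (ENSMUSG00000059824, chr7:45705088-45710203), a direct CLOCK and BMAL1 target with one of the deepest rhythms known in mouse tissues, read 19.3, 21.8, 14.8 and 16.4 FPKM in WT, against 23.6, 25.3, 17.6 and 15.8 FPKM in the KO-labelled libraries. KO1 and KO2 stood above all WT libraries, and KO3 and KO4 lay within their range. The log2 fold change was 0.17 ± 0.18 (adjusted p = 0.496), with a 95% interval from -0.23 to 0.57. It did not pass under any alternative (adjusted p = 0.0605 to 0.821). Dbp shares 539 of 2993 exon bases with Sphk2 on the opposite strand, which was at 4.98 ± 0.850 and 3.76 ± 0.683 FPKM.

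Tef (ENSMUSG00000022389, chr15:81802421-81826863), the third PAR-bZIP factor, read 15.8, 19.99, 17.7 and 15.2 FPKM in WT, against 18.5, 19.5, 21.6 and 23.2 FPKM in the KO-labelled libraries. WT2 lay inside the KO-labelled range. The log2 fold change was 0.27 ± 0.11 (adjusted p = 0.0968, 95% interval 0.02 to 0.51 before adjustment). It passed with listed-read scaling (0.51, adjusted p = 0.00557), sum scaling (0.54, adjusted p = 0.00576), with quantile normalization (0.44, adjusted p = 0.0202), without WT2 (0.34, adjusted p = 0.0495) and without WT2 and KO1 together (0.39, adjusted p = 0.0398).

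Within a library, Hlf stood at 0.0589 to 0.0858 of the Tef level in WT but at 0.164 to 0.181 in the KO-labelled fat. It stood at 0.0481 to 0.103 and 0.126 to 0.267 of the Dbp level. The ratio of Clock to Arntl was 5.64 to 8.09 in WT libraries and 4.24 to 4.89 in KO-labelled ones. These ratios too were chosen after the values were seen and carry no test. By contrast, the ratio of Dbp to Arntl overlapped, at 18.1 to 31.2 in WT libraries and 19.4 to 31.99 in KO-labelled ones.

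As levels per length, the order in WT ran from Nr1d1 (52.7 FPKM) through Dbp (18.1), Tef (17.2), Nr1d2 (14.2), Per3 (6.19), Clock (5.31), Per2 (4.66), Cry1 (2.32) and Hlf (1.26) to Arntl (0.770). Library ranges of the neighbours Dbp and Tef, Tef and Nr1d2, Per3 and Clock, and Clock and Per2 overlapped. In the KO-labelled group Nr1d1 was still highest (27.2 FPKM) and Arntl lowest (0.801 FPKM). There Per2 (9.15 FPKM) stood above Clock (3.62 FPKM) with no overlap, and Hlf (3.58 FPKM) overlapped both Clock and Cry1 (2.76 FPKM).

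**Figure D3:**
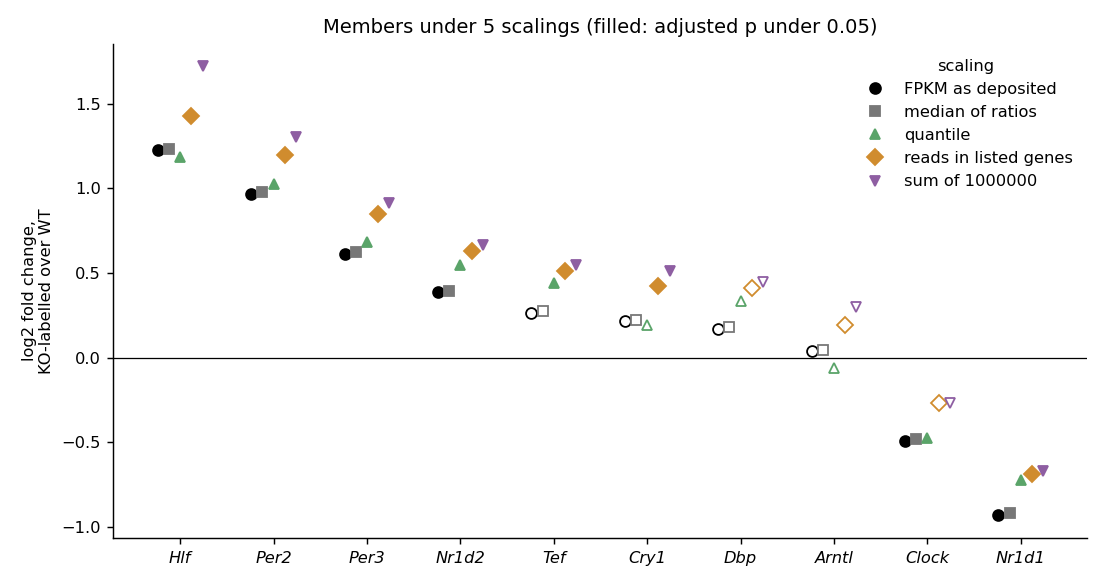
Log2 fold change of each member, KO-labelled over WT (vertical axis), under 5 scalings of the libraries, with filled markers for an adjusted p under 0.05. Hlf, Per2, Per3, Nr1d2 and Nr1d1 are filled under every scaling. Clock is open under listed-read and sum scaling, and Tef and Cry1 are filled under those. Tef is also filled under quantile normalization.

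Of the 29 other clock genes reported here, in 4 lists, 26 were tested, of which 4 were higher, 3 lower and 19 not called. The 7 called are 26.9% of those tested, near the 30.4% of all tested genes. The lists of transcription factors and of stability regulators hold only the genes reported, a choice made after the values were known, so their counts and medians describe these genes alone. In the list of other transcription factors and repressors (10 genes, 8 tested) 2 fell and 6 did not pass, with a median log2 fold change of -0.06. Rora, which encodes an activator that competes with the REV-ERBs, did not pass (3.16 ± 0.453 and 3.46 ± 0.602 FPKM, adjusted p = 0.539).

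Bhlhe40 and Bhlhe41, the DEC repressors that compete with CLOCK and BMAL1 at E-boxes, both fell. Bhlhe40 went from 10.3 ± 1.45 to 4.97 ± 0.524 FPKM (-0.98 ± 0.11, adjusted p = 0.000555), with 8.65 to 11.8 FPKM in WT libraries and 4.30 to 5.58 FPKM in the KO-labelled libraries. Bhlhe41 went from 3.00 ± 0.342 to 1.67 ± 0.257 FPKM (-0.69 ± 0.11, adjusted p = 0.00275). The calls of Bhlhe40 and Bhlhe41 held under all 21 alternatives.

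Among 9 regulators of clock protein stability (8 tested) only Usp2, a rhythmic deubiquitinase of clock proteins, was called, rising from 1.45 ± 0.338 to 3.24 ± 0.533 FPKM (0.95 ± 0.15, adjusted p = 0.00247). The other 7 tested, among them the kinase genes Csnk1d and Csnk1e, and all 4 co-repressors did not pass. Fbxl21, an F-box protein gene of this list, was below the filter at 0.144 to 0.295 FPKM in WT, against 0.394 to 0.421 FPKM in the KO-labelled libraries, from 17 to 55 reads. Its groups did not overlap (ratio of means 1.86, exact two-sided permutation p = 0.0286). Over the 14 genes of the 4 lists that were tested, not called and not described singly, log2 fold changes ran from -0.17 to 0.24 and no adjusted p was below 0.123.

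In the list of outputs rhythmic in many tissues, 3 of 6 rose and 1 fell, with a median log2 fold change of 0.60. Of all tested genes 11.7% were higher and 18.6% lower, with a median of -0.02. This list too was chosen with earlier results of these data known, so its counts are no test against those shares. Nampt, the rate-limiting enzyme gene of NAD salvage, rose from 15.0 ± 1.31 to 32.2 ± 4.95 FPKM (1.07 ± 0.12, adjusted p = 0.000429). Tspan4, a tetraspanin gene, rose from 26.3 ± 1.38 to 49.0 ± 7.15 FPKM (0.88 ± 0.11, adjusted p = 0.000796). Neither gene's groups overlapped. Wee1, a cell-cycle kinase gene driven by E-boxes, rose by 0.73 ± 0.22 (adjusted p = 0.0378), with WT4 (4.18 FPKM) inside the KO-labelled range. Leaving out WT1, WT2, WT3, KO1, KO2 or KO3 in turn ended its call (adjusted p = 0.0756 to 0.0897), as did the fits without WT1 and WT2 together (0.47, adjusted p = 0.224) and without WT2 and KO1 together (0.63, adjusted p = 0.147). Coq10b, a coenzyme Q chaperone gene, fell by 0.34 on the log2 scale (adjusted p = 0.0304). Its call was lost without any of WT1, WT2, WT3, WT4 or KO2 (adjusted p = 0.0523 to 0.0722), and the change was -0.11 with sum scaling (adjusted p = 0.543) and -0.12 with listed-read scaling (adjusted p = 0.392).

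**Figure D4:**
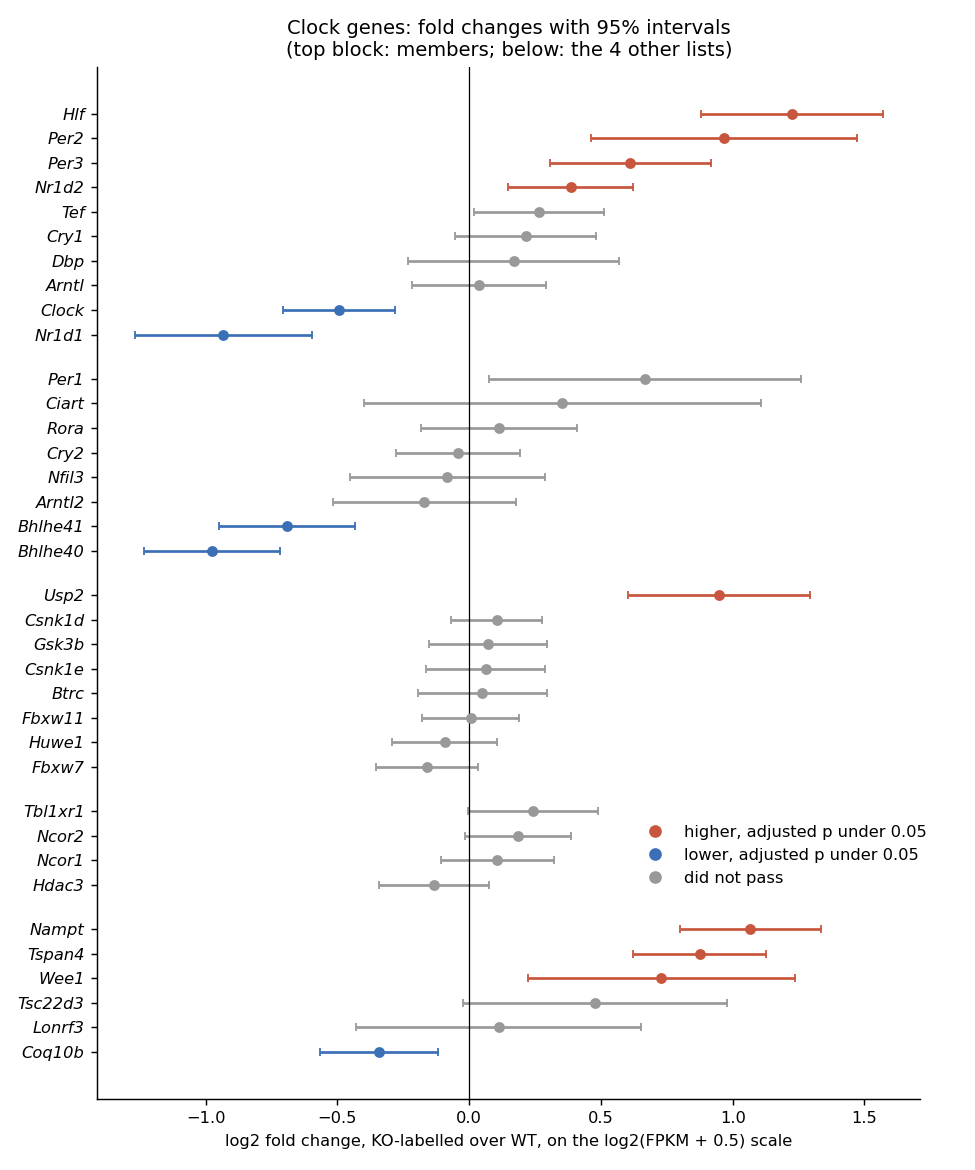
Log2 fold change, KO-labelled over WT (horizontal axis), with its 95% interval before adjustment, for the 10 members (top block) and the 26 tested genes of the 4 other lists. Red and blue mark higher and lower genes at an adjusted p under 0.05, and grey marks genes that did not pass. Hlf and Nampt lie farthest to the right, and Bhlhe40 and Nr1d1 farthest to the left.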

How the data were processed

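Poly(A) RNA of 8 libraries (4 WT, 4 KO-labelled) was sequenced. The authors deposited FPKM values per gene and library, and the submitters' processing notes list HISAT2 2.0.5, featureCounts and mm10. The annotation release and strand setting were not given in the sources used here. Symbols were assigned by gene ID (28255 of 28295 matched), and coordinates are those of GENCODE M21 (mm10, 1-based). Values were fitted with limma 3.58.1 in R 4.3.3 (trend and robust moderation, two-sided) after adding a pseudocount of 0.5 and keeping the 14400 genes with a mean of at least 0.5 FPKM. Errors are SDs for FPKM means and moderated standard errors for fold changes. Reads were recovered from exon lengths and the steps of low FPKM values, and 97.9% of values between 0.5 and 200 reads were whole to within 0.02. The intervals and read counts do not cover differences between animals that were not sampled.

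The members and gene lists were chosen with earlier results of these data known. All members, Cul3, every called gene of the 4 other lists, and Per1, Cry2, Rora, Npas2, Fbxl21, Tsc22d3 and Ciart were named, the last 7 after their values were seen. Some genes of the lists of transcription factors and of stability regulators are not reported here and stand in no count. They were left out after the values were known, for a reason unrelated to their values. The 19 alternative settings first chosen covered pseudocount, filter, scaling, moderation, replicate block, voom on recovered reads and left-out libraries. A further 2 (scaling to the reads in listed genes, and leaving out WT2 and KO1) were chosen after seeing the data. On simulated data with 14400 genes the fit recovered 71% of 100 genes changed by 1 on the log2 scale. It recovered 30% of 100 changed by 0.5, and 7.34% of its calls were false. Far fewer genes were changed there than the 4372 called in the data, so these rates need not hold for the data. Other software was Python 3.11.15 with pandas 2.3.3, numpy 2.4.6, matplotlib 3.10.9 and scipy 1.17.1.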

Additional observations from a re-analysis of the deposited data

Results flagged for a closer look

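In 44 groups of 4 libraries (10 members and 12 other named genes, each in WT and KO-labelled), a single library stood apart from the other 3 in 1 group. Chance alone gives about 1 in 20. Cry1 was 3.28 FPKM in KO4, against 2.52 to 2.63 FPKM in the rest of its group.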

How the results depend on the processing

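Of the 10 members, Hlf, Per2, Per3 and Nr1d1 kept their calls and directions under all 21 alternatives, and Dbp and Arntl passed under none (Arntl was below the stricter filter and had 20). Sum scaling gave 4226 higher and 1190 lower genes, 1 member was lower, 12 other clock genes were higher, and log2 fold changes were -0.27 for Clock, 0.51 for Cry1, 0.54 for Tef and 0.23 for Cry2. With listed-read scaling these were 4185 and 1266 genes, 1 member, 13 other clock genes, and -0.27, 0.42, 0.51 and 0.20. Quantile normalization gave 8 other clock genes higher, -0.061 for Arntl, 0.44 for Tef and 0.049 for Cry2. Leaving out each library in turn gave 1100 to 1938 higher and 1862 to 2794 lower genes. Nr1d2 then ranged from 0.32 to 0.46, Tef from 0.21 to 0.34 and Cry2 from -0.13 to 0.03, the last turning to 0.026 without WT2. Without WT1 and WT2 together, 729 genes were higher and 1029 lower, Nr1d2 was 0.37, and Arntl (-0.048), Cry2 (0.060) and Rora (-0.020) turned sign. Without WT2 and KO1 together, Nr1d2 was 0.43 and Tef 0.39. The cause was not tested.

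The labels do not say whether the replicate numbers shared by the groups pair the libraries. Same-numbered deviations from the group means correlated at -0.06, -0.13, 0.17 and -0.32. These values are taken over all tested genes, so they do not settle pairing for single genes. With the replicate number as a block, 1113 genes were higher and 1995 lower, no member's call changed, and Wee1 (adjusted p = 0.113) and Coq10b (adjusted p = 0.0566) lost theirs. Both were also lost without a filter on low values (adjusted p = 0.0706 and 0.0598), and Coq10b with quantile normalization (0.0540). Tsc22d3, not called in the main fit (log2 fold change 0.48, limma adjusted p = 0.132), passed under 3 scalings (0.69 to 0.76). Cul3 passed under 2 (0.33 and 0.37). Ciart was not called in the main fit (0.35, limma adjusted p = 0.447) or under any alternative. Low read numbers limit Arntl, Hlf and Cry1 most, which rest on 126 to 168, 158 to 695 and 154 to 271 reads.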

Other observations

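Some clock genes differed between libraries of the same group together, a pattern noticed in the values and not tested. In WT, Per2 was 2.87 and 3.63 FPKM in WT1 and WT3 against 5.19 and 6.97 FPKM in WT4 and WT2. Per1 was 7.82 and 11.99 FPKM against 16.2 and 20.3 FPKM in the same libraries. Tsc22d3, a glucocorticoid-induced leucine zipper gene that is rhythmic in many tissues, was 20.4 and 23.9 FPKM against 36.7 and 39.8 FPKM, and Ciart, a repressor of CLOCK and BMAL1, 0.555 and 0.830 FPKM against 1.26 and 1.66 FPKM. Of the 36 clock genes tested, 5 had exactly this order of the WT libraries (Per2, Per1, Ciart, Usp2, Tsc22d3), as did 2.80% of all tested genes. The order was read from Per2, Per1, Tsc22d3 and Ciart themselves, so their count is no test against that share. WT2 was the highest WT library for 6 of the 10 members and WT4 the lowest for 5.

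In the KO-labelled group, KO1 and KO2 were higher than KO3 and KO4 for Dbp (23.6 and 25.3 against 17.6 and 15.8 FPKM), Ciart (2.70 and 1.82 against 1.10 and 0.697 FPKM), Wee1 (6.06 and 5.29 against 4.60 and 3.64 FPKM) and Tsc22d3 (49.2 and 42.4 against 37.5 and 35.0 FPKM). Dbp was also higher in WT1 and WT2 than in WT3 and WT4 (19.3 and 21.8 against 14.8 and 16.4 FPKM). Ciart, Wee1 and Tsc22d3 were not split that way in WT. KO3 and KO4 were the higher libraries for Hlf, Tef, Per3 and Clock. KO4 was the highest of its group for 6 members and KO1 the lowest for 7. Of the 36 clock genes, 5 fell in the order KO1, KO2, KO3, KO4 (Per1, Ciart, Csnk1d, Tsc22d3, Wee1), as did 9.10% of all tested genes. Another 7 rose in that order (Clock, Per3, Cry1, Tef, Rora, Huwe1, Gsk3b), as did 8.20% of all tested genes. Per1, Ciart and Tsc22d3 had both the WT order of Per2 and the falling KO order, which 45 tested genes (0.312%) shared. The orders were picked from the values of these genes, so that share is no test either. Sequencing depth in listed genes was 18.7 and 15.9 M reads in KO1 and KO2 and 15.2 and 16.4 M in KO3 and KO4, with no such order. Summed macrophage markers fell from KO1 to KO4 (577.9, 531.2, 369.1 and 226.9 FPKM), as did the low sums of T and B cell markers (2.71, 2.46, 1.85 and 1.37 FPKM). Singly, only C1qa of the macrophage markers fell at every step. Adgre1, Cd68, Csf1r and Mrc1 were highest in KO2 and fell from there to KO4. No single T or B cell marker fell at every step. In WT the summed smooth muscle markers had the reverse of the Per2 order, with 171.6 and 146.9 FPKM in WT1 and WT3 against 94.97 and 84.6 FPKM in WT4 and WT2. Most of that sum was Acta2 (160.1 and 133.5 against 84.9 and 73.1 FPKM). Des was also higher in WT1 and WT3 than in WT4 and WT2, while Myh11 and Cnn1 did not split by these pairs. Tagln split the opposite way, at 0.474 and 0.439 FPKM in WT1 and WT3 against 0.511 and 0.651 FPKM in WT4 and WT2. The part of these cell types in the pattern was not tested.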
